A study of Homo sapiens with 6 samples.

Results

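The 9 genes HLA-B, HLA-C, HLA-E, B2M, TAP1, TAP2, PSMB8, PSMB9 and NLRC5 encode parts of the MHC class I antigen presentation pathway. They were chosen by name, and the read counts of their 12 RefSeq transcript rows were summed per symbol. All 9 of them were found among the 23540 gene symbols of the count table, and all 9 passed the filter on low counts.

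Polyadenylated RNA was sequenced from 1 primary culture line of human dermal fibroblasts, in 2 libraries for each of 3 groups. Cells of the first group were untreated and are labelled as expressing no added gene. The second, WT-MyoD, carried a Tet-ON lentivirus for mouse wild-type MyoD, a transcription factor that starts the skeletal muscle programme. The third, VP64-MyoD, carried the same vector for MyoD with VP64, a viral-derived activation domain, fused to its N-terminus. In both vectors the red fluorescent protein dsRed-Express2 was made from the same transcript through a T2A peptide. Per the labels' protocols, transduced cells were selected in puromycin, grown to confluence, given 3 µg/mL doxycycline and harvested on day 10. Whether the untreated cells also received virus, puromycin or doxycycline, and when they were harvested, is not in the labels, so the effects of MyoD and of these steps cannot be told apart in a comparison with untreated cells. The replicates are described as biological duplicates, all from that line, so p-values cover no variation between donors.

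MHC class I molecules show peptides from inside the cell to CD8 T cells and, through HLA-E, to natural killer cells. Proteasomes cut proteins into peptides, the TAP1-TAP2 transporter pumps them into the endoplasmic reticulum, and there a heavy chain (HLA-B, HLA-C or HLA-E) folds around the peptide together with the light chain B2M. Interferons raise most of these genes, exchange constitutive proteasome subunits for PSMB8 and PSMB9, and induce NLRC5, the transactivator of MHC class I promoters. Fibroblasts carry class I at moderate levels, and mature skeletal muscle fibres are known for very low surface class I.

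The upstream sequences that interferon, NF-kB and the NLRC5 complex are known to use are shown for 5 of the genes, because heavy chains, B2M and the transporter are set side by side below. RefSeq promoters (build GRCh38.p14) were matched for 7 of the 9 genes. Each line is 5′ to 3′ on the strand of the gene, in lower case. Capitals mark matches, on either strand, to the core of the interferon-stimulated response element (ISRE; TTTC, any 2 bases, TTTC), the NF-kB consensus, the CCAAT box or TGACG, the core of the X2 element of MHC promoters.
HLA-B, chr6:31357219-31357359, minus strand: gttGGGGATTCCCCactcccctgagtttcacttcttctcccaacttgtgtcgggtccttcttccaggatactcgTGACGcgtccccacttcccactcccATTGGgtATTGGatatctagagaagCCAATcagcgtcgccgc
HLA-C, chr6:31272132-31272272, minus strand: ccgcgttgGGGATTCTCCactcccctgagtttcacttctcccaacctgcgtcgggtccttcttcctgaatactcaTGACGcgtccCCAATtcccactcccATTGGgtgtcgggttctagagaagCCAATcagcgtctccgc
B2M, chr15:44711367-44711477, plus strand: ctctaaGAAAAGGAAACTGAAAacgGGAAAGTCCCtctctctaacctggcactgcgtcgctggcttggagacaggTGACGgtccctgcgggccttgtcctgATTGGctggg
TAP1, chr6:32853759-32853844, minus strand: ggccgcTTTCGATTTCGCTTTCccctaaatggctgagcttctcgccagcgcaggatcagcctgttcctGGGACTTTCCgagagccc
TAP2, chr6:32838764-32838809, minus strand: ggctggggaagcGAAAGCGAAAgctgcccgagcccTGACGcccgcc

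In the 250 bases before the start sites, B2M, TAP1 and TAP2 (3 of the 7 genes) held the ISRE core, which 3.02% of all 35116 promoters in the table held over the same length. In B2M and in TAP1, 2 matches of this core overlap each other. TGACG was found upstream of 6 of the 7 genes and in 21.2% of all promoters. A CCAAT box was found in 5 of 7, against 32.0%, and the NF-kB consensus in 4 of 7, against 9.96%. In HLA-B, 2 matches of the NF-kB consensus overlap. CANNTG, the E-box that MyoD and other bHLH factors bind, was found upstream of B2M, PSMB8 and PSMB9, against 61.8% of all promoters. CAGCTG, an E-box form that MyoD prefers, was found in 0 of 7 and in 14.0% of all promoters. These matches describe letters in a fixed window and are not measured binding sites. Only exact matches were counted, so a variant of an element stays unmarked. The stretch tttcacttct in the HLA-B and HLA-C lines differs from the ISRE core only in its last bases. A gene without a match is therefore not shown to lack the element.

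Library totals ranged from 40997586 to 53804224 counts, in which each read pair counts as 2. Reads of the mouse transgene stood at 758 and 1015 CPM (TMM-scaled counts per 1000000) with WT-MyoD and at 115 and 96.5 CPM with VP64-MyoD. The untreated libraries held 5.09 and 1.05 CPM of it. Thus VP64-MyoD cells had less transgene RNA (edgeR log2 fold change -3.06 ± 0.25 SE, adjusted p = 4.2e-08), and the domain and the amount of transgene cannot be told apart in the comparison of the forms. All 10 skeletal muscle markers rose with both forms, and their summed level went from 17.0 to 17.9 CPM untreated to 953 to 972 under WT-MyoD and 5322 to 6101 under VP64-MyoD. The 10 fibroblast markers were present in every library, with sums of 43940 to 46328 CPM untreated, 30001 to 34177 under WT-MyoD and 31025 to 33614 under VP64-MyoD. Collagens make up most of these sums, and single markers went both ways: 4 rose and 4 fell with WT-MyoD, and 2 rose and 7 fell with VP64-MyoD. In bulk RNA, fewer cells of a type and less RNA per cell cannot be told apart.

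With WT-MyoD, 8 of the 9 class I genes rose, all by less than 2-fold. The light chain B2M rose 1.54-fold, the transporter subunit TAP1 1.71-fold and the proteasome subunit PSMB9 1.95-fold. The 8 higher and 0 lower calls (edgeR adjusted p under 0.05) stood beside 47.9% called among the 15778 genes tested (25.7% higher, 22.2% lower). The libraries of the groups did not overlap for any of the 9, as for 71.4% of all genes. The median log2 fold change was 0.52 over the 9 genes and 0.00 over all genes tested. HLA-E was the gene without a call. With VP64-MyoD the heavy chains HLA-C and HLA-E and the transactivator NLRC5 fell below untreated cells, whereas B2M, TAP2 and PSMB9 rose above them. HLA-B was also called lower, which makes 3 higher and 4 lower calls, beside 63.1% called among all genes (33.0% higher, 30.0% lower). Libraries did not overlap for 8 of the 9, against 83.2% of all genes. The HLA-B call is weak, and its sign turned to a log2 fold change of 0.021 with total-count scaling. That scaling gave 5 higher calls (B2M, TAP1, TAP2, PSMB8 and PSMB9) and 2 lower (HLA-E and NLRC5), so the balance between directions depends on it. Over all genes it gave 6787 higher and 3125 lower calls with VP64-MyoD, against 5210 and 4739, and 5802 and 1876 with WT-MyoD, against 4057 and 3498. Against WT-MyoD, 8 of the 9 genes were lower with VP64-MyoD and 0 higher, beside 56.6% called among all genes (28.2% lower, 28.4% higher). None of the 9 had overlapping libraries there, as for 78.1% of all genes. Here the median was -0.55, against 0.02 over all genes tested. HLA-B, HLA-C and NLRC5 (3 of 9) were called in opposite directions against the shared untreated libraries and called between the forms, as were 5.1% of all genes. With total-count scaling, NLRC5 and HLA-E were the genes of the 9 that met this. HLA-E then stood at log2 fold changes of 0.28 with WT-MyoD and -0.74 with VP64-MyoD.

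**Figure D1:**
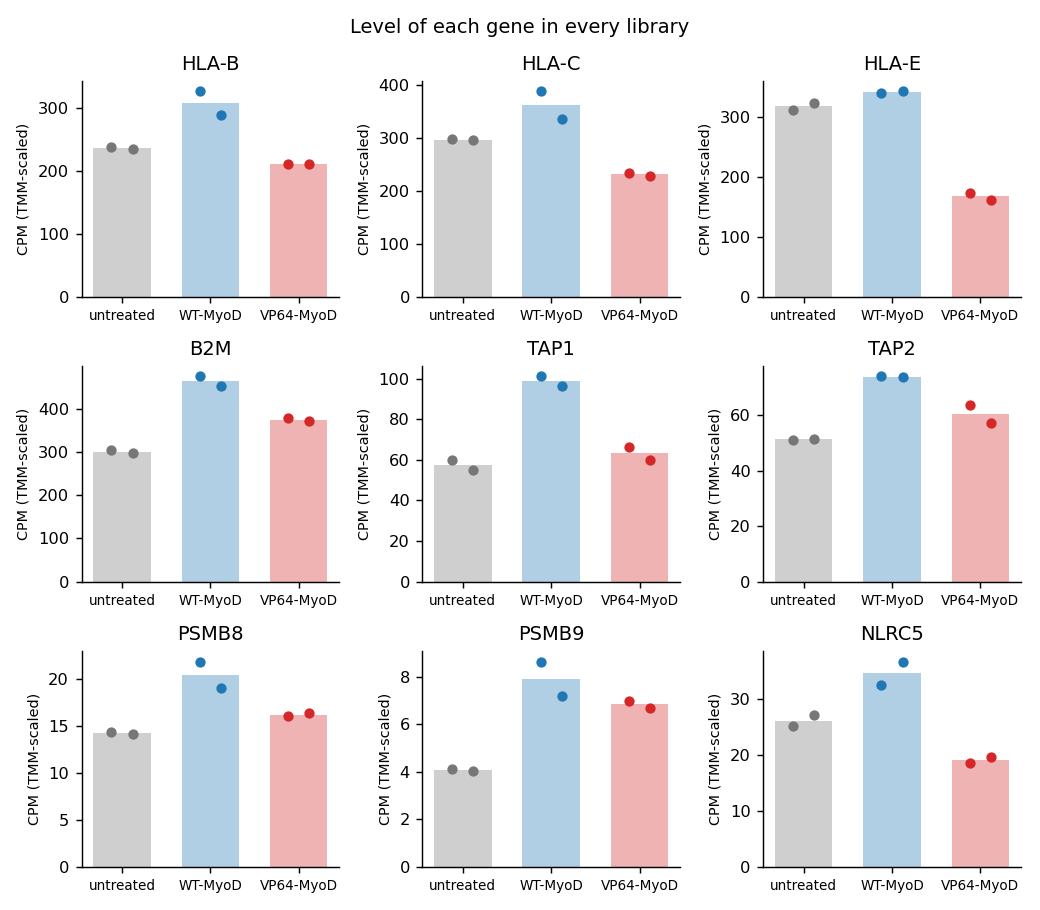
TMM-scaled CPM (vertical axis, from 0) of each of the 9 genes in untreated, WT-MyoD and VP64-MyoD cells. Points are the 2 libraries of a group and bars their mean; the heavy chains HLA-B, HLA-C and HLA-E and NLRC5 are lowest with VP64-MyoD (for HLA-B the order against untreated turns with total-count scaling), whereas B2M, TAP2 and PSMB9 are lowest in untreated cells.

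The heavy chains were taken first. HLA-B, a classical peptide-presenting chain, stood at 238 and 235 CPM untreated, 326 and 290 CPM under WT-MyoD, 211 and 211 CPM under VP64-MyoD. The 3 groups did not overlap, and the WT-MyoD libraries differed most from each other. HLA-B rose with WT-MyoD (edgeR log2 fold change 0.38 ± 0.07 SE, adjusted p = 2.1e-04). With VP64-MyoD it was 1.12-fold under untreated (edgeR log2 fold change -0.17 ± 0.07 SE, adjusted p = 0.044), a call that ended without any 1 of the 4 untreated and VP64-MyoD libraries (adjusted p between 0.12 and 0.17) and turned in sign with total-count scaling (log2 fold change 0.021, adjusted p = 0.82). Against WT-MyoD, HLA-B was lower with VP64-MyoD by -0.55 on the log2 scale (0.07 SE in edgeR, adjusted p = 5.3e-06).

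HLA-C, the classical chain best known as a ligand of natural killer cell receptors, stood at 298 and 297 CPM untreated, 389 and 336 CPM under WT-MyoD, 235 and 228 CPM under VP64-MyoD. Again no groups overlapped. It rose with WT-MyoD (edgeR log2 fold change 0.29 ± 0.07 SE, adjusted p = 0.0037), where the value without WT-MyoD replicate 1 was 0.17. HLA-C fell with VP64-MyoD (edgeR log2 fold change -0.36 ± 0.07 SE, adjusted p = 4.2e-04), and this call ended with total-count scaling (log2 fold change -0.18, adjusted p = 0.051). Between the forms it was lower with VP64-MyoD (edgeR log2 fold change -0.65 ± 0.07 SE, adjusted p = 1.7e-06).

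HLA-E, the non-classical chain that presents leader peptides of other class I chains to the CD94-NKG2 receptors, showed the lowest fold change of the 9 genes in each comparison. It stood at 310 and 323 CPM untreated, 339 and 342 CPM under WT-MyoD, 172 and 161 CPM under VP64-MyoD. The VP64-MyoD libraries lay far under the other 4, which were close together. HLA-E fell 1.90-fold with VP64-MyoD against untreated cells (edgeR log2 fold change -0.92 ± 0.06 SE, adjusted p = 4.3e-09) and was 2.04-fold lower than with WT-MyoD (edgeR log2 fold change -1.03 ± 0.06 SE, adjusted p = 1.9e-09). With WT-MyoD it did not pass against untreated (edgeR log2 fold change 0.10 ± 0.06 SE, adjusted p = 0.19), and it passed with total-count scaling (log2 fold change 0.28). Class I heavy chains are close paralogs, and how reads that fit several of them were counted is not given in the sources used here, so the values of single chains are uncertain.

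B2M, the light chain that every class I heavy chain needs at the surface, stood at 304 and 298 CPM untreated, 475 and 453 CPM under WT-MyoD, 378 and 371 CPM under VP64-MyoD. The groups were fully separate, with VP64-MyoD between the others. B2M rose with WT-MyoD (edgeR log2 fold change 0.62 ± 0.06 SE, adjusted p = 4.8e-07) and with VP64-MyoD (edgeR log2 fold change 0.32 ± 0.06 SE, adjusted p = 3.8e-04). It was lower under VP64-MyoD than WT-MyoD (edgeR log2 fold change -0.31 ± 0.06 SE, adjusted p = 5.6e-04).

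Ratios of read counts within a library do not depend on scaling. The ratio of HLA-E to B2M counts was 1.02 and 1.09 untreated, 0.714 and 0.756 under WT-MyoD, 0.456 and 0.435 under VP64-MyoD. For HLA-C to B2M it was 0.980 and 0.997, then 0.819 and 0.742, then 0.621 and 0.615. For HLA-B to B2M it was 0.784 and 0.789, then 0.687 and 0.640, then 0.558 and 0.569. Each heavy chain thus stood lower against B2M in both MyoD groups than in untreated cells, and lowest with VP64-MyoD, with no overlap between groups. Permutation of 2 against 2 libraries cannot reach a p under 0.05, and no other test of these ratios was made.

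**Figure D2:**
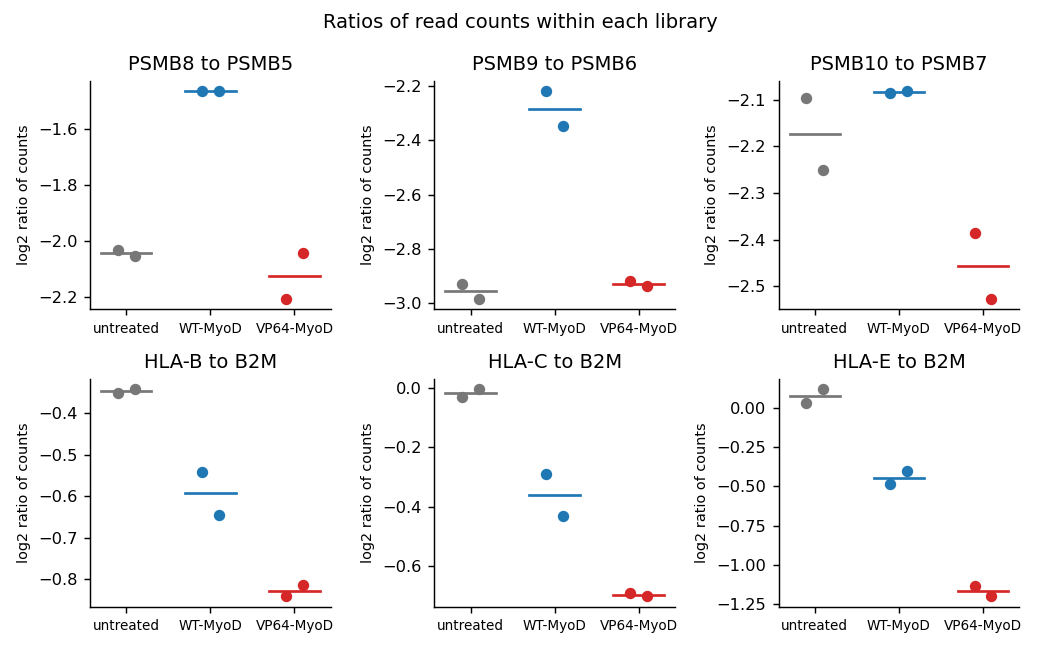
Log2 ratio of read counts (vertical axis, a scale of its own in each panel) in each library of the 3 groups, with points for libraries and lines for group means. The upper row sets immunoproteasome subunits against the constitutive subunits they replace, where PSMB8 and PSMB9 stand highest with WT-MyoD; the lower row sets heavy chains against B2M, where each is lowest with VP64-MyoD.

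The transporter subunits came next. TAP1 stood at 60.1 and 55.0 CPM untreated, 101 and 96.4 CPM under WT-MyoD, 66.6 and 59.7 CPM under VP64-MyoD. WT-MyoD stood apart, and the untreated and VP64-MyoD libraries overlapped. TAP1 rose with WT-MyoD (edgeR log2 fold change 0.78 ± 0.07 SE, adjusted p = 1.9e-07) and did not pass with VP64-MyoD (edgeR log2 fold change 0.13 ± 0.07 SE, adjusted p = 0.12), where total-count scaling gave 0.32 with a call. The direct difference between the forms was -0.65 (0.07 SE in edgeR, adjusted p = 1.6e-06).

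TAP2, the other chain of the transporter, stood at 51.1 and 51.5 CPM untreated, 73.9 and 73.8 CPM under WT-MyoD, 63.8 and 57.3 CPM under VP64-MyoD. No groups overlapped. It rose with WT-MyoD (edgeR log2 fold change 0.53 ± 0.07 SE, adjusted p = 9.0e-06). With VP64-MyoD it rose by 0.24 (0.07 SE in edgeR, adjusted p = 0.0064), and this call ended without VP64-MyoD replicate 1 (log2 fold change 0.16, adjusted p = 0.15) and without untreated replicate 1 (adjusted p = 0.053). TAP2 was lower under VP64-MyoD than WT-MyoD, at a log2 fold change of -0.29 (0.07 SE in edgeR, adjusted p = 0.0019), a call that ended without VP64-MyoD replicate 2 (adjusted p = 0.066) and in the most abundant transcript row alone (log2 fold change -0.14, adjusted p = 0.12). That row held 61.6% and 61.3% of TAP2 counts untreated, 61.4% and 60.2% under WT-MyoD, 67.5% and 67.4% under VP64-MyoD. The share of the row was thus higher in both VP64-MyoD libraries than in the other 4, and this difference carries no test. With that row alone, the rise of TAP2 over untreated cells with VP64-MyoD was 0.37 on the log2 scale.

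Next were the interferon-inducible proteasome subunits. PSMB8 stood at 14.4 and 14.2 CPM untreated, 21.9 and 19.1 CPM under WT-MyoD, 16.1 and 16.4 CPM under VP64-MyoD. It rose with WT-MyoD (edgeR log2 fold change 0.52 ± 0.09 SE, adjusted p = 1.9e-04) and did not pass with VP64-MyoD (edgeR log2 fold change 0.18 ± 0.09 SE, adjusted p = 0.097), although the libraries did not overlap and total-count scaling gave a call at 0.37. PSMB8 was lower under VP64-MyoD than WT-MyoD (edgeR log2 fold change -0.34 ± 0.09 SE, adjusted p = 0.0046).

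PSMB9, the subunit with the lowest counts here (178 to 490 per library), stood at 4.13 and 4.04 CPM untreated, 8.65 and 7.2 CPM under WT-MyoD, 7.01 and 6.68 CPM under VP64-MyoD. Both MyoD groups lay well above untreated cells and close to each other. It rose with WT-MyoD (edgeR log2 fold change 0.96 ± 0.13 SE, adjusted p = 2.1e-05) and with VP64-MyoD (edgeR log2 fold change 0.74 ± 0.14 SE, adjusted p = 2.0e-04). Between the forms it did not pass (edgeR log2 fold change -0.22 ± 0.13 SE, adjusted p = 0.16), and it did without WT-MyoD replicate 2 (log2 fold change -0.35, adjusted p = 0.034).

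PSMB9 and TAP1 lie head to head on chromosome 6, with RefSeq start sites 488 bases apart on opposite strands (GRCh38.p14). The count ratio of PSMB9 to TAP1 was 0.0687 and 0.0735 untreated, 0.0856 and 0.0747 under WT-MyoD, 0.105 and 0.112 under VP64-MyoD. The VP64-MyoD libraries were the highest, and the untreated and WT-MyoD libraries were close. Since strand was not marked by the library method, reads of overlapping genes on opposite strands could not be told apart. From these start sites, however, TAP1 and PSMB9 run away from each other and do not overlap.

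The immunoproteasome subunits PSMB8 and PSMB9 take the places of PSMB5 and PSMB6 in the proteasome core. The PSMB8 to PSMB5 count ratio was 0.244 and 0.241 untreated, 0.362 and 0.362 under WT-MyoD, 0.216 and 0.243 under VP64-MyoD. For PSMB9 to PSMB6 it was 0.131 and 0.126, then 0.215 and 0.197, then 0.132 and 0.130. Both ratios were therefore higher with WT-MyoD, by 0.58 and 0.67 on the log2 scale. With VP64-MyoD they differed from untreated by -0.08 and 0.03, although PSMB9 itself rose. The third pair, PSMB10 to PSMB7, stood at 0.234 and 0.210, then 0.235 and 0.236, then 0.191 and 0.174. Behind the VP64-MyoD ratios, PSMB6 rose by 0.71 on the log2 scale (0.07 SE in edgeR, adjusted p = 4.1e-07) and PSMB5 by 0.27 (0.08 SE in edgeR, adjusted p = 0.0060).

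NLRC5, which assembles with the RFX and NF-Y factors on class I promoters, stood at 25.1 and 27.0 CPM untreated, 32.5 and 36.6 CPM under WT-MyoD, 18.5 and 19.6 CPM under VP64-MyoD. The 3 groups were separate, with VP64-MyoD the lowest. It rose with WT-MyoD (edgeR log2 fold change 0.41 ± 0.08 SE, adjusted p = 8.1e-04) and fell with VP64-MyoD (edgeR log2 fold change -0.45 ± 0.09 SE, adjusted p = 3.0e-04; -0.26 with total-count scaling, adjusted p = 0.022). Between the forms NLRC5 was 1.81-fold lower with VP64-MyoD (edgeR log2 fold change -0.86 ± 0.08 SE, adjusted p = 4.9e-07). After HLA-E this was the lowest fold change of the 9 genes between the forms.

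**Figure D3:**
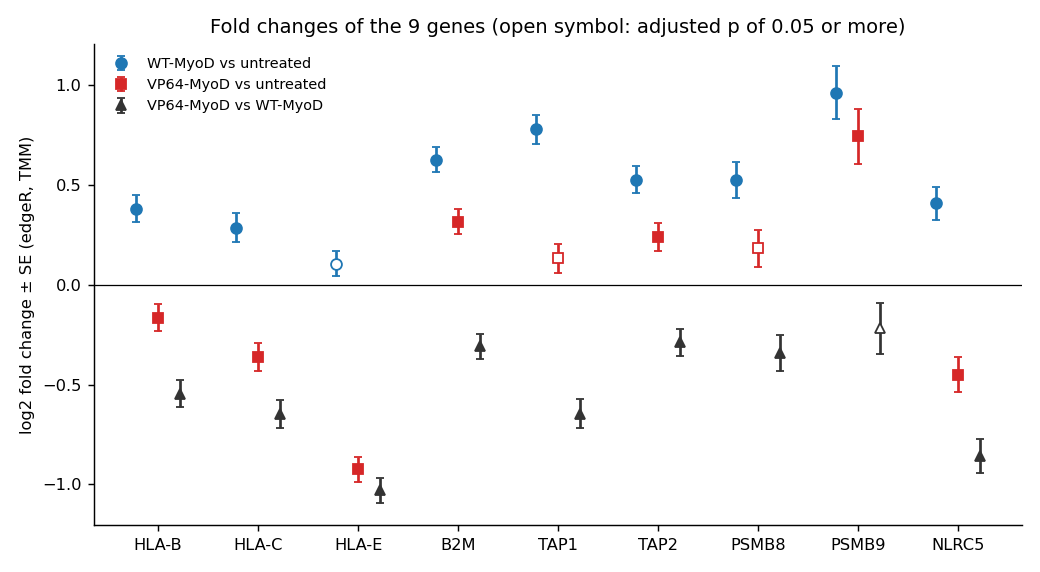
Log2 fold change ± SE (vertical axis) of the 9 genes in the 3 comparisons, from the edgeR fit of 6 libraries with TMM scaling; filled symbols passed an adjusted p under 0.05. The values for WT-MyoD against untreated lie between 0.10 and 0.96, and those for VP64-MyoD against untreated between -0.92 and 0.74, where HLA-B at -0.17 turned to 0.021 with total-count scaling.

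Levels were set side by side per transcript length, in CPM per kb. In untreated cells B2M stood at 319 ± 4.7 (SD, n = 2), HLA-C at 194 ± 0.45, HLA-B at 153 ± 1.5 and HLA-E at 122 ± 3.5 CPM per kb. TAP1 followed at 19.5 ± 1.2, TAP2 at 13.5 ± 0.087, PSMB8 at 11.7 ± 0.12, PSMB9 at 5.23 ± 0.077 and NLRC5 at 3.87 ± 0.21 CPM per kb. No neighbours in this order overlapped in untreated cells. HLA-C, TAP2 and PSMB8 have 2 transcript rows each, and whether reads of shared exons entered both rows is not given in the sources used here. Isoform by replicate chi-square values (1 degree of freedom) of these genes had a mean of 0.282 over 9 tables. Independent sampling of the rows would give a mean near 1. If shared reads were counted in both rows, the summed levels of these genes would be too high. The HLA-C to B2M and PSMB8 to PSMB5 ratios would then be too high as well. Double counting itself was not tested. With the most abundant row alone, HLA-C stood at 99.0 CPM per kb, under HLA-E, and TAP2 at 5.55, under PSMB8 at 6.50 and close to PSMB9. The places of these genes in the order therefore depend on the sum.

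Other genes of the pathway came from lists. Of 11 other class I heavy chains and relatives tested (of 12 listed), 3 rose and 2 fell with WT-MyoD, and 3 rose and 5 fell with VP64-MyoD. Here as in the lists that follow, calls stand beside 47.9% of all genes called with WT-MyoD and 63.1% with VP64-MyoD, and the 5 and 8 calls of 11 lie near these shares. FCGRT, the neonatal Fc receptor chain that pairs with B2M, stood at 57.2 and 51.5 CPM untreated, 43.1 and 41.5 CPM under WT-MyoD, 10.3 and 10.2 CPM under VP64-MyoD. It fell with both forms (log2 fold changes -0.36 and -2.41, edgeR adjusted p = 7.2e-04 and 7.5e-13). MR1, which presents vitamin metabolites to MAIT cells, fell with VP64-MyoD, at a log2 fold change of -1.38 (0.09 SE in edgeR, adjusted p = 1.4e-09). ULBP2, a stress ligand of the NKG2D receptor, rose with VP64-MyoD by 1.16 (0.15 SE in edgeR, adjusted p = 7.5e-06).

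In the endoplasmic reticulum, 3 of 8 loading and trimming genes rose with WT-MyoD and 1 fell, and 4 rose and 2 fell with VP64-MyoD. The 4 WT-MyoD calls became 2 without either untreated library, and the 6 VP64-MyoD calls 3 without VP64-MyoD replicate 1. TAPBP (tapasin), which bridges TAP and the heavy chain, rose with WT-MyoD by 0.48 (0.06 SE in edgeR, adjusted p = 1.5e-05) and was lower under VP64-MyoD than WT-MyoD, at a log2 fold change of -0.32. TAPBPL, the related peptide editor, fell with VP64-MyoD, at a log2 fold change of -0.69 (0.12 SE in edgeR, adjusted p = 1.3e-04). The trimming peptidase ERAP2 rose with WT-MyoD by 0.54 (0.07 SE in edgeR, adjusted p = 4.8e-06). The chaperones CALR and PDIA3 rose with VP64-MyoD by 0.32 and 0.34 (edgeR adjusted p = 4.6e-04 and 3.2e-04).

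Of 14 constitutive 20S subunits, 14 rose with VP64-MyoD (median 0.54 on the log2 scale). With WT-MyoD 2 rose and 1 fell, with a median of 0.04. Those 3 calls became 7 with total-count scaling, 5 without WT-MyoD replicate 2 and 1 without untreated replicate 1. Of 14, 13 were higher under VP64-MyoD than WT-MyoD and 0 lower. PSMA2 rose with both forms, by 0.39 and 0.88. The PA28 activator genes PSME1 and PSME2 rose with WT-MyoD by 0.62 and 0.73 (edgeR adjusted p = 1.1e-04 and 1.1e-05) and with VP64-MyoD by 0.91 and 1.13 (edgeR adjusted p = 1.3e-06 and 5.3e-08). Of the 6 other immunoproteasome parts and activators, which include both, 2 rose and 1 fell with WT-MyoD, and 5 rose and 0 fell with VP64-MyoD. PSME1 and PSME2 were higher under VP64-MyoD than WT-MyoD, opposite in sign to the 8 class I genes called there. Of 8 cytosolic peptidases, 4 rose and 1 fell with WT-MyoD, and 6 rose and 1 fell with VP64-MyoD. The 5 WT-MyoD calls became 3 without either untreated library or VP64-MyoD replicate 1. LAP3, a leucine aminopeptidase, rose by 0.45 and 0.54.

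Among 13 transcription factors of MHC promoters, 5 rose and 3 fell with WT-MyoD, and 4 rose and 5 fell with VP64-MyoD. The 8 and 9 calls of 13 stand beside 47.9% and 63.1% of all genes, and the 8 WT-MyoD calls became 5 without untreated replicate 1. RFX5, a partner of NLRC5, was lower under VP64-MyoD than WT-MyoD, at a log2 fold change of -0.56 (0.09 SE in edgeR, adjusted p = 1.0e-04). RFXANK, another RFX factor, went the other way between the forms, at 0.77 (0.11 SE in edgeR, adjusted p = 2.8e-05). NFYB, an NF-Y subunit that binds CCAAT boxes, fell by 1.04 with each form, on the log2 scale, whereas NFYA rose by 0.42 and 0.66. NFKB1, an NF-kB subunit, fell by 0.36 and 0.66. In the class II pathway 5 of 12 genes were tested, of which 2 rose with WT-MyoD, and 2 rose and 1 fell with VP64-MyoD (1 call without VP64-MyoD replicate 2). CD74, the invariant chain, was low everywhere, at 0.361 and 0.545 CPM untreated, 1.66 and 1.12 CPM under WT-MyoD, 0.172 and 0.114 CPM under VP64-MyoD. It rose with WT-MyoD and fell with VP64-MyoD (log2 fold changes 1.64 and -1.65, edgeR adjusted p = 0.0020 and 0.013). The lysosomal protease CTSS rose by 1.55 with each form.

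Interferon genes were set beside the class I genes, with the reminder that comparisons with untreated cells share the same untreated libraries. Of 22 interferon effector genes, 21 rose and 1 fell with WT-MyoD, at a median of 4.41 on the log2 scale, against 0.52 over the 9 class I genes. With VP64-MyoD 15 rose and 3 fell, with a median of 1.47 against 0.13. Between the forms, 20 were lower with VP64-MyoD and 1 higher, with a median of -2.69 against -0.55. MX2, an antiviral GTPase, went from 0.160 and 0.182 CPM untreated to 19.7 and 18.3 CPM under WT-MyoD and 1.68 and 1.45 CPM under VP64-MyoD. Earlier results on these data had shown that effector pattern. Among 9 tested genes of the interferon-gamma type (of 12 listed), 3 rose and 2 fell with each form. GBP2 rose by 1.04 and 0.92, and GBP1 fell with WT-MyoD, at a log2 fold change of -0.42. CD274, the checkpoint ligand PD-L1, rose by 3.46 and 1.72 (edgeR adjusted p = 9.5e-12 and 9.1e-08).

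**Figure D4:**
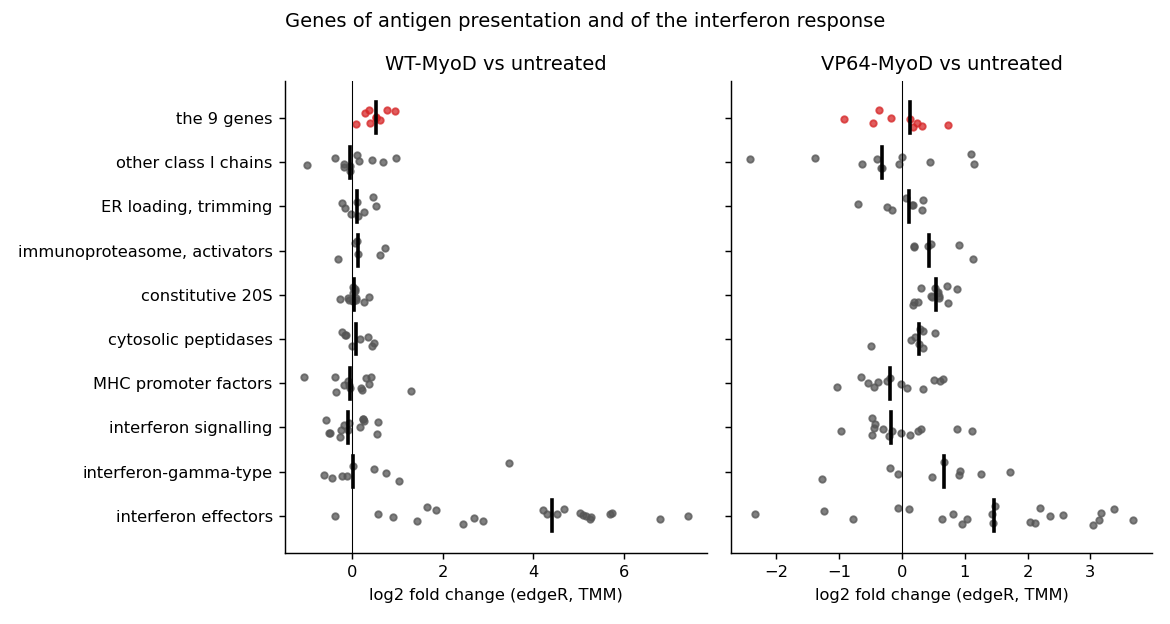
Log2 fold change against untreated (horizontal axis) of every tested gene in each list, with WT-MyoD on the left and VP64-MyoD on the right on different axis ranges; each point is 1 gene and black bars are medians. The 9 class I genes (red; HLA-B at -0.17 on the right turned to 0.021 with total-count scaling) have medians of 0.52 and 0.13, interferon effectors 4.41 and 1.47, and constitutive 20S subunits 0.04 and 0.54.

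Of 18 interferon ligand, receptor and signalling genes, 14 were tested. With WT-MyoD 4 rose and 5 fell, and with VP64-MyoD 4 rose and 7 fell. The 9 and 11 calls of 14 stand beside 47.9% and 63.1% of all genes, and the 9 WT-MyoD calls became 5 without untreated replicate 1. Of the 4 ligand genes listed, IFNA1 had 0 to 8 counts per library, with the 8 in untreated replicate 1, and was not tested. IFNB1, IFNG and IFNL1 had no count in any of the 6 libraries, which allows up to 3 read pairs over all of them, or 0.0206 CPM (counting error only). STAT2, which carries type I interferon signals, stood at 218 and 233 CPM untreated, 261 and 285 CPM under WT-MyoD, 120 and 112 CPM under VP64-MyoD. It fell with VP64-MyoD, at a log2 fold change of -0.96 (0.07 SE in edgeR, adjusted p = 7.5e-09). IRF9, a DNA-binding partner of STAT2, rose with WT-MyoD by 0.58 (0.08 SE in edgeR, adjusted p = 2.1e-05). Other signalling genes went the other way. JAK1, IFNGR2 and SOCS3 fell with WT-MyoD (log2 fold changes -0.51, -0.48 and -0.56, edgeR adjusted p = 5.9e-06, 2.3e-05 and 1.6e-04). With VP64-MyoD the receptor gene IFNAR2 rose by 0.88 (0.11 SE in edgeR, adjusted p = 2.7e-06), whereas IFNAR1 and IFNGR2 fell (log2 fold changes -0.47 and -0.48).

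Leukocytes carry far more class I than fibroblasts, so their markers were checked. Of 10 leukocyte markers, CD3E was at 0 in every library, and the pan-leukocyte gene PTPRC lay between 0.742 and 1.68 CPM. The summed level was 69.4 to 71.1 CPM untreated, 178 to 182 under WT-MyoD and 47.1 to 48.6 under VP64-MyoD. CD68, a lysosomal protein also made outside the macrophage line, gave nearly all of it, at 66.0 and 67.6, then 175 and 178, then 42.9 and 44.7 CPM. Single markers went both ways: of 6 tested, 2 rose and 1 fell with WT-MyoD, and 1 rose and 2 fell with VP64-MyoD. These calls stand beside 47.9% and 63.1% of all genes called. The sum, and so mainly CD68, went in the direction of all 8 class I genes called with WT-MyoD. With VP64-MyoD it was lower than untreated, as were HLA-C, HLA-E and NLRC5 (and HLA-B, except with total-count scaling), whereas B2M, TAP2 and PSMB9 were higher. Its part in these changes was not tested. Summed endothelial markers (6 genes) stood at 11.4 to 11.6 CPM untreated, 9.0 to 9.43 under WT-MyoD and 19.6 to 21.3 under VP64-MyoD. These sums hide opposite moves, with log2 fold changes from -0.67 to 8.31 with WT-MyoD (2 rose, 1 fell). With VP64-MyoD they ran from -1.61 to 11.8 (3 rose, 0 fell). Summed epithelial markers (6 genes, 4 of them tested) stood at 14.9 to 16.2, 3.88 to 5.40 and 5.53 to 5.98 CPM. Of these 4, 1 rose and 2 fell with WT-MyoD, and 0 rose and 2 fell with VP64-MyoD. The part of endothelial and epithelial markers in the class I changes was not tested.

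The median pattern of the 9 genes over the 6 libraries was compared with 13421 other genes by Euclidean distance of log2 CPM centred on untreated cells. The 8 nearest were RRM2B, HS6ST1, LYPLA2, ITM2B, GSN, CDIP1, ARID3B and TAPBP, at distances from 0.093 to 0.131. TAPBP was the nearest gene from the lists. TAP2 and PSMB8 lay at 0.183 from the median, B2M at 0.337, TAP1 at 0.390 and HLA-B at 0.453. HLA-C, NLRC5, PSMB9 and HLA-E lay farther away, at 0.756, 0.839, 1.1 and 1.58.

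None of the 12 transcript rows was among the 3135 transcripts of the authors' deposited table, where the highest adjusted p is 9.82e-06 in the WT-MyoD columns and 9.95e-06 in the VP64-MyoD columns.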

How the data were processed

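Read counts per RefSeq transcript, whole numbers and not normalized, were taken from the count table that the authors deposited. All values are even. Per the submitters' processing notes, CASAVA, Bowtie 0.12.9, DESeq 1.10.1 and hg19 were used. The authors' deposited table of comparisons holds a fold or ratio over untreated, its log2 and p-values, per the file headers. It was read only for which transcripts it lists and their p-values; its group means were not used here.

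Of 40710 rows, 39324 were matched to symbols through RefSeq (GRCh38.p14) and 517 through GENCODE release 29. The 868 rows without a symbol stayed in the fit under their accession, and 1 row is the mouse transgene. Rows were summed per symbol. Transcript lengths came from GENCODE; an HLA-C row without one was given that of the other.

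The 6 libraries entered 1 fit (edgeR 4.0.16, R 4.3.3, TMM, filterByExpr with minimum count 10 and total 15, two-sided quasi-likelihood test, 3 residual degrees of freedom). Benjamini-Hochberg adjustment ran over all 15778 genes and rows tested beside the transgene, with calls under 0.05. SE was derived as |log2 fold change| / √F. The fit was tested on simulated data. All 9 genes are named. Other named genes were drawn from up to 4 called genes of smallest adjusted p per list and comparison, and from the 8 genes of nearest pattern (mean of at least 1 CPM, log2 of CPM plus 0.01). Genes outside that rule, named after their values were seen, are PSMB5, PSMB7, PSMB10, IFNA1, IFNB1, IFNG, IFNL1 and the markers. Members and lists were chosen with earlier results of these data known. Alternatives were DESeq2 1.42.0, limma-voom (limma 3.58.1), RLE and total-count scaling, no filter, a replicate block, read pairs, 2 groups alone, single rows and leaving out each library. Replicates differed by more than sampling noise (chi-square per degree of freedom 3.43, 13.5 and 5.88 in untreated, WT-MyoD and VP64-MyoD).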

Additional observations from a re-analysis of the deposited data

Results flagged for a closer look

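In 3 of the 9 genes the forms of MyoD moved the level in opposite directions from untreated cells, with calls in both and in the direct test, as in 5.1% of all genes tested. Both comparisons share the untreated libraries. NLRC5 was higher than untreated with WT-MyoD and lower with VP64-MyoD, and the forms differed by a log2 fold change of -0.86. HLA-C behaved likewise, with a difference of -0.65 between the forms, and its call below untreated was lost with total-count scaling. For HLA-B the difference was -0.55, while its fall below untreated cells with VP64-MyoD was lost when any 1 of the 4 libraries was left out and turned in sign with total-count scaling.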

How the results depend on the processing

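Counts of calls in either direction, among the 9 genes and among all genes, stayed within 1.5 times in every alternative run; counts by direction did not with total-count scaling. With the replicate block, 8, 7 and 8 of the 9 genes were called in WT-MyoD against untreated, VP64-MyoD against untreated and VP64-MyoD against WT-MyoD, as without it, and 7531, 9905 and 8893 of all genes against 7555, 9949 and 8925. The replicate numbers share no more than a number (correlations of deviations between 0.0071 and 0.032). Of 405 recomputed fold changes of the 9 genes, 391 kept their direction and side of the threshold, 9 lost and 4 gained a call, and 1 turned: HLA-B in VP64-MyoD against untreated, at 0.021 with total-count scaling. That scaling, and the use of single transcript rows, were chosen after seeing the data. Total-count scaling moved the median of all genes to 0.17 with WT-MyoD and 0.22 with VP64-MyoD, and calls to 5802 higher and 1876 lower (against 4057 and 3498), and 6787 and 3125 (against 5210 and 4739). Among the 9 genes it gave 5 higher and 2 lower calls with VP64-MyoD, against 3 and 4. Relative to the median of all genes HLA-B stood at -0.19 under both scalings. A change of scaling shifts all genes by about the same amount, so this match was fixed in advance. It does not show that the fall of HLA-B is free of the scaling. Of 1680 recomputed fold changes of named list genes, 37 lost a call and 0 turned. Of 450 list counts, 17 moved by over 1.5 times. PSMB9, at 178 to 490 counts, had the largest SE of the 9 genes.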
